A study of Mus musculus with 12 samples.

Results

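The genes described here are 10 members of the NRF2 and superoxide defence system in mouse epididymal white adipose tissue (eWAT): Nfe2l2, Keap1, Nqo1, Hmox1, Srxn1, Txnrd1, Txn1, Sod1, Sod2 and Sod3. They were chosen by name, and each Ensembl identifier in the table was matched to its symbol, which gave 10 of the 23474 genes measured. RNA-seq was performed on eWAT from male C57BL/6J mice that were 17 weeks old after 12 weeks of feeding, with 3 libraries in each of 4 groups. The groups received a normal diet (ND), a high-fat diet (HFD), the HFD containing an ethanol extract of green tea (GT, 0.25% w/w) or the HFD containing the herbal formula Taeeumjowuitang (TJ, 3% w/w). The values are FPKM, fragments scaled to transcript length and to the mapped fragments of the library, so levels of different genes can be compared per length. The tissue was sequenced whole, so a lower level can stand for fewer cells of a type or for less RNA per cell, which cannot be told apart.

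NRF2, encoded by Nfe2l2, is a transcription factor that KEAP1 binds and hands over for degradation in unstressed cells. Oxidants and electrophiles modify KEAP1, NRF2 then accumulates, and with small MAF proteins it binds antioxidant response elements next to genes for detoxification, thioredoxin and heme breakdown. The superoxide dismutases turn superoxide into hydrogen peroxide, SOD1 in the cytosol, SOD2 in mitochondria and SOD3 outside the cell. Hmox1 is known for its expression in tissue macrophages, where heme from red cells is broken down, and Sod1, Sod2 and Keap1 are expressed in most cells.

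The promoters were searched because NRF2 acts through short DNA elements. RefSeq promoter sequences (GRCm38.p6, 250 bases before to 50 after each start site) were available for 8 of the 10 genes. Hmox1 and Sod3 were not matched. The letters TGACNNNGC, the core of the antioxidant response element, and TGAGNNNGC were searched on both strands. The first stood in 12.39% and the second in 17.65% of 32851 promoter windows, and 27.79% held either. Of the 10 windows of the 8 genes, 4 held a match, 1 each of Srxn1, Txnrd1, Nfe2l2 and Sod1. Srxn1 had 3 matches in its window, at -158 to -150, -45 to -37 and 29 to 37 from the start site. Nfe2l2 had 1 at -240 to -232, Sod1 had 1 at -56 to -48, and Txnrd1 had 1 at -92 to -84 in 1 of its 3 windows. A match is a description of the letters and not evidence of binding. The windows of Srxn1 and Txnrd1 are shown because both genes differed between diets, and that of Sod1 because it is the member with the highest FPKM. Capitals mark the matches.
Srxn1, chr2:152105274-152105573, plus strand: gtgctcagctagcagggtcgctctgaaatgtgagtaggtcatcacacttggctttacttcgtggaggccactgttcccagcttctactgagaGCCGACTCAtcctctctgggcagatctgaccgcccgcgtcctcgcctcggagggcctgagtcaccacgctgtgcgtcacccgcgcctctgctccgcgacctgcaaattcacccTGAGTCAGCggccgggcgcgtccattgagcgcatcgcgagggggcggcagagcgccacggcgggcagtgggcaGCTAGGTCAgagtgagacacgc
Txnrd1, chr10:82858956-82859255, plus strand: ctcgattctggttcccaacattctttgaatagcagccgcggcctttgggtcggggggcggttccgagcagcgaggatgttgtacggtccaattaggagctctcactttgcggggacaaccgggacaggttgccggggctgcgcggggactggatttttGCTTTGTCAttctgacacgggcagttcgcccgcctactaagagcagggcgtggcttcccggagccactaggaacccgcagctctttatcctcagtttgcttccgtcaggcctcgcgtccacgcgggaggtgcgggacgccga
Sod1, chr16:90220512-90220811, plus strand: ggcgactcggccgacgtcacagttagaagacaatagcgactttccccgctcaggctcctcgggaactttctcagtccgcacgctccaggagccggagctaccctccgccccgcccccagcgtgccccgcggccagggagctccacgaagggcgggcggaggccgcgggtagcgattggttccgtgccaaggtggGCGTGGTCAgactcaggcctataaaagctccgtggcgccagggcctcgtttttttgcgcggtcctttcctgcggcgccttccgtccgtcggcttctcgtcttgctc

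All 10 are protein-coding genes, and their positions are given in GRCm38. Nfe2l2 (ENSMUSG00000015839) lies at chr2:75675513-75704641 on the minus strand, and Keap1 (ENSMUSG00000003308) at chr9:21229730-21239361 on the minus strand. Of the targets, Hmox1 (ENSMUSG00000005413) lies at chr8:75093621-75100589 on the plus strand, Srxn1 (ENSMUSG00000032802) at chr2:152105516-152111376 on the plus strand, and Txnrd1 (ENSMUSG00000020250) at chr10:82833951-82897712 on the plus strand. Txn1 (ENSMUSG00000028367) lies at chr4:57943373-57956411 on the minus strand, and Nqo1 (ENSMUSG00000003849) at chr8:107388225-107403206 on the minus strand. The dismutases are on different chromosomes, Sod1 (ENSMUSG00000022982) at chr16:90220754-90226329 on the plus strand, Sod2 (ENSMUSG00000006818) at chr17:13006846-13040063 on the plus strand, and Sod3 (ENSMUSG00000072941) at chr5:52363791-52371418 on the plus strand.

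The libraries held about 9.9M to 19.7M fragments each, as estimated from the smallest steps between FPKM values. ND replicate 1 stood apart. It was the shallowest library, its Spearman correlation with an ND library was as low as 0.268, and transcripts of 7 testis germ cell genes took 9.57% and those of 8 epididymal genes 2.02% of its FPKM sum. The summed FPKM of 8 adipocyte markers was 3886 in this library and 16963 to 58683 in the other 11, and all 8 markers were above 0 in every library. The germ cell sum was also raised in ND replicate 3 (2731 FPKM) and HFD replicate 1 (1928 FPKM), and the epididymal sum in HFD replicate 2 (1275 FPKM, against 20265 in ND replicate 1). Results of HFD against ND are therefore given with and without ND replicate 1.

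The regulators were measured first. Nfe2l2 was at 51.0, 51.6 and 56.6 FPKM in the 3 HFD libraries, 43.5, 37.8 and 35.6 in the GT libraries, and 40.2, 36.9 and 43.5 in the TJ libraries. In the ND libraries it was at 4.18, 35.9 and 31.8. The HFD libraries were above all others, the GT and TJ libraries overlapped, and the lowest value belonged to ND replicate 1. Keap1, the adaptor that holds NRF2 in check, was lower, at 9.88, 8.52 and 10.2 FPKM in the HFD group, 10.8, 10.3 and 10.8 in the GT group and 8.10, 7.09 and 9.77 in the TJ group. Its ND values, 2.99, 5.61 and 11.3, spanned those of the other groups. Keap1 overlaps an antisense gene, and their reads cannot be told apart without strand. Nfe2l2 overlaps the small nuclear RNA gene Gm24996 on the same strand.

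Among the targets, Hmox1 had the widest range. This gene encodes heme oxygenase 1, which breaks heme down to biliverdin, iron and carbon monoxide. It was at 110, 92.8 and 133 FPKM in the HFD libraries (mean 112 ± 19.9, SD, n = 3) and 3.15, 17.0 and 18.5 in the ND libraries. It was at 88.3, 66.2 and 42.1 in the GT libraries and at 59.2, 29.0 and 52.4 in the TJ libraries. Each HFD library lay above every library of the other groups, each ND library lay below them, and the GT and TJ libraries overlapped.

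Srxn1 and Txnrd1 had the same order of group means, HFD above GT, TJ and ND. Srxn1 encodes sulfiredoxin, which restores overoxidized peroxiredoxins, and was at 44.3, 43.5 and 56.8 FPKM in the HFD group. It was at 36.6, 29.1 and 22.9 in the GT group, 27.8, 16.3 and 26.7 in the TJ group and 24.4, 13.6 and 21.0 in the ND group. The GT, TJ and ND libraries overlapped in that order, and all 9 were under the HFD libraries. Txnrd1, the cytosolic thioredoxin reductase, was at 45.3, 43.3 and 53.3 in the HFD group and 33.4, 29.4 and 28.8 in the GT group. It was at 28.6, 25.2 and 28.6 in the TJ group and 7.15, 22.3 and 28.3 in the ND group. The GT libraries lay just above the TJ libraries, and the TJ and ND libraries overlapped. Txnrd1 overlaps the protein-coding gene Eid3 on the same strand, and Gm38560 and Gm47073 on the opposite strand.

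Txn1 and Nqo1 were arranged differently. Txn1, the thioredoxin that TXNRD1 reduces, was at 151, 131 and 150 FPKM in the HFD group and 161, 171 and 111 in the TJ group. It was at 113, 98.8 and 74.4 in the GT group and 79.9, 90.0 and 66.6 in the ND group. TJ overlapped HFD and GT, and GT overlapped ND. Nqo1, a quinone reductase widely used as a readout of NRF2, had the lowest level of the 10 genes. Its FPKM was 2.28, 5.22 and 2.66 in the HFD group, 3.01, 2.90 and 3.03 in the GT group, 3.70, 4.62 and 5.64 in the TJ group and 2.60, 3.97 and 3.50 in the ND group. The HFD library of 5.22 FPKM lay above all but 1 TJ library, so these groups overlapped.

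Sod1 was the member with the highest FPKM. It was at 431, 352 and 360 FPKM in the HFD libraries, 353, 378 and 382 in the GT libraries, 649, 1182 and 531 in the TJ libraries and 1584, 515 and 426 in the ND libraries. All TJ libraries were above the HFD and GT libraries, and TJ replicate 2 and ND replicate 1 were the highest of their groups. Sod1 shares its locus with Scaf4 on the opposite strand, and their reads cannot be told apart without strand. Sod2 was at 45.6, 43.8 and 47.9 FPKM in the HFD group, 49.8, 39.6 and 38.6 in the GT group and 49.0, 40.6 and 53.7 in the TJ group, and lower at 20.3, 28.3 and 27.5 in the ND group. HFD, GT and TJ overlapped for Sod2, and ND lay below them.

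Sod3 separated all 4 groups. It was at 309, 324 and 325 FPKM in the TJ libraries, 251, 279 and 292 in the GT libraries, 206, 180 and 200 in the HFD libraries and 30.0, 166 and 155 in the ND libraries. No library of a group overlapped another group in this order, and the TJ libraries differed among themselves least, with a mean of 319 ± 8.85 FPKM (SD, n = 3).

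**Figure D1:**
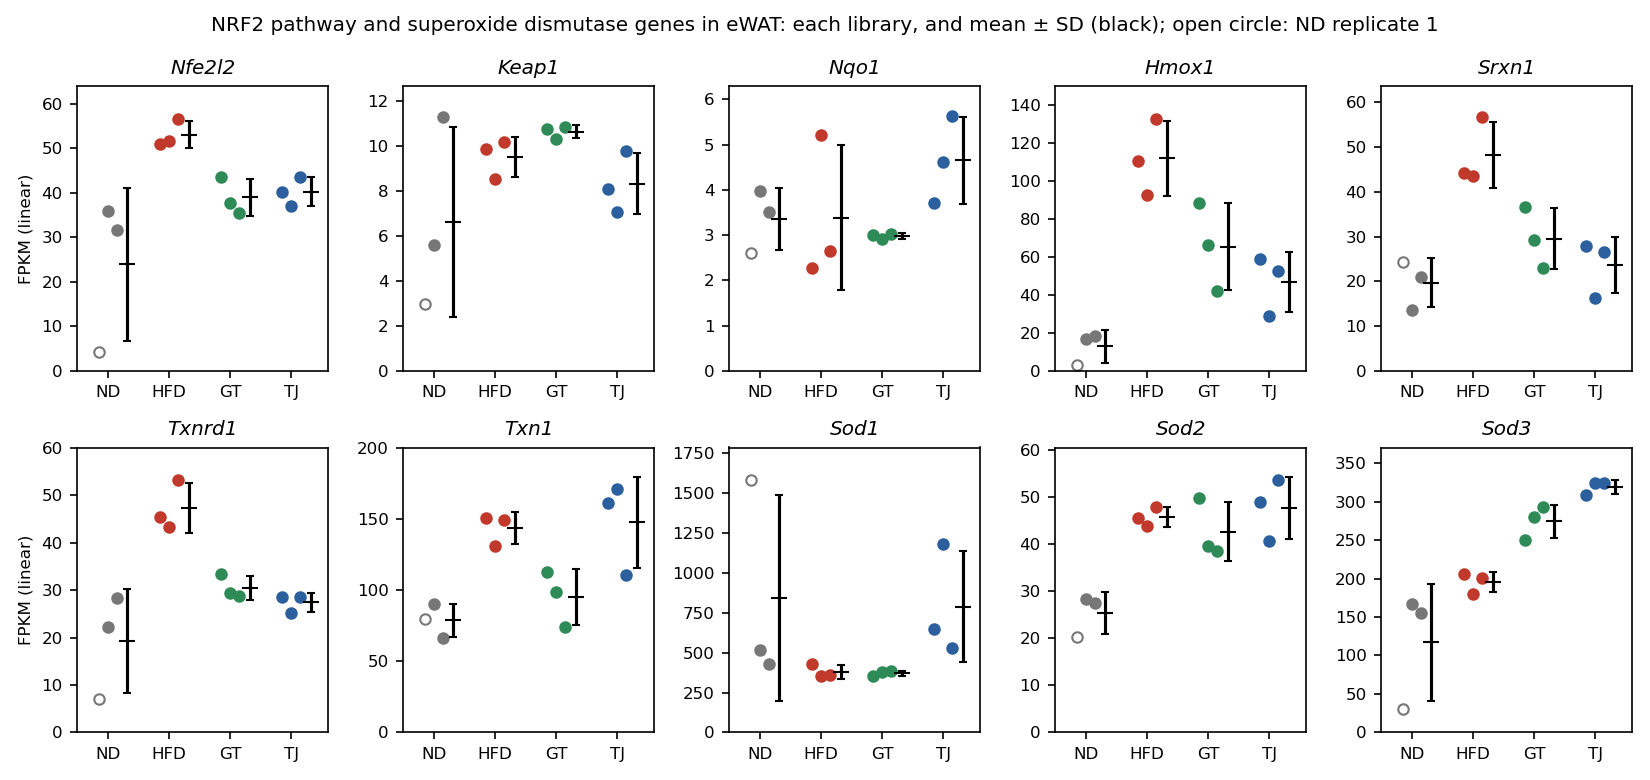
FPKM of the 10 genes in each library by group, with the group mean and SD (n = 3), and ND replicate 1 as an open circle. Hmox1, Srxn1 and Txnrd1 are highest in the HFD group, whereas Sod3 is highest in the TJ group (309 to 325 FPKM).

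The effect of the high-fat diet was examined by comparing HFD with ND. Hmox1 was 8.68 times as high in HFD by the ratio of means, and Srxn1, Txnrd1, Nfe2l2, Txn1, Sod2 and Sod3 were also higher in every HFD library than in any ND library. These 7 of 10 genes compare with 20.5% of all genes that were higher in every HFD library. DEGs, defined by a Benjamini-Hochberg adjusted p-value under 0.05 in limma and a fold change of at least 1.5, numbered 0 of the 10, while 1.77% of 14430 genes were called. At an unadjusted p under 0.05, 5 of the 10 passed, against 11.6% of all genes. The log2 fold change on the log2(FPKM + 1) scale was 3.30 ± 0.65 (SE) for Hmox1, with an adjusted p of 0.0836 in limma, and 1.28 ± 0.32 for Srxn1 (adjusted p = 0.160).

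Without ND replicate 1, which left 2 ND libraries, and with no replicate block, 6 of the 10 genes were DEGs, all of them higher in HFD, when 15.4% of 13661 genes were called and 11% were called higher. Hmox1 rose by 2.58 ± 0.18 (log2, SE; adjusted p = 0.00145, limma), Srxn1 by 1.44 ± 0.23 (adjusted p = 0.0150), and Sod2 by 0.69 ± 0.11 (adjusted p = 0.0144). Txn1 rose by 0.88, Txnrd1 by 0.88 and Nfe2l2 by 0.64. With the replicate number also as a block, 2 of the 10 were called, Hmox1 (2.58, adjusted p = 0.0204, limma) and Srxn1 (1.499, adjusted p = 0.0409), when 3.67% of all genes were, and HFD replicate 1, the only library left with its number, added nothing to that fit. Sod3, Keap1, Nqo1 and Sod1 were called in neither fit. With no block their log2 fold changes were 0.28, 0.22, -0.17 and -0.30, and with the block 0.24, 0.19, 0.013 and -0.40. With ND replicate 1, which had the lowest ND value of Nfe2l2, Txnrd1 and Sod3 and the highest of Sod1, the log2 fold change was 1.55 for Nfe2l2, 1.44 for Txnrd1, 1.07 for Sod3 and -0.89 for Sod1.

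TJ was compared with HFD to describe the herbal formula. Hmox1, Srxn1 and Txnrd1 were significantly lower in the TJ group and Sod3 was significantly higher, each relative to HFD. These 4 of 10 genes compare with 18.5% of 12807 genes called, with 11.1% of all genes called lower and 7.41% called higher. Hmox1 fell by 1.29 ± 0.28 on the log2(FPKM + 1) scale (SE; limma, adjusted p = 0.0306), which left it at 0.419 of the HFD mean. Srxn1 fell by 1.03 ± 0.23 (adjusted p = 0.0312) and Txnrd1 by 0.76 ± 0.14 (adjusted p = 0.0248). Sod3 rose by 0.71 ± 0.13 (adjusted p = 0.0248), or 1.63 times the HFD mean.

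The other 6 genes were not called in TJ against HFD. Sod1 had a log2 fold change of 0.96 ± 0.30 (adjusted p = 0.0582, limma) with no overlap between the groups, and Nfe2l2 had -0.39 ± 0.13 (adjusted p = 0.0631). The differences were 0.41 for Nqo1, -0.18 for Keap1, 0.02 for Txn1 and 0.05 for Sod2, with 95% intervals of -0.24 to 1.06, -0.54 to 0.18, -0.44 to 0.47 and -0.29 to 0.39. In all, 6 of the 10 genes had groups that did not overlap, close to the 51.5% of all genes. The number called was 0 without TJ replicate 1 or without any of the 3 HFD libraries, where 0 genes of the table were called. It was 5 without TJ replicate 2 or without TJ replicate 3, when 2023 of 12869 and 3412 of 12873 genes were called. The log2 fold changes kept their direction when any 1 of the 6 libraries was left out, from -1.48 to -0.98 for Hmox1, -1.16 to -0.79 for Srxn1, -0.82 to -0.67 for Txnrd1 and 0.65 to 0.75 for Sod3. With all 12 libraries in the fit 0 were called, when 1 of 12807 genes was. With 11 libraries, without ND replicate 1, the same 4 genes and Sod1 were called, when 3003 of 12807 genes were. The call of Sod3 was lost with the replicate block (adjusted p = 0.0547, limma), those of Hmox1 and Srxn1 with no filter, and that of Txnrd1 with the length trend removed, when its fold change was under 1.5.

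**Figure D2:**
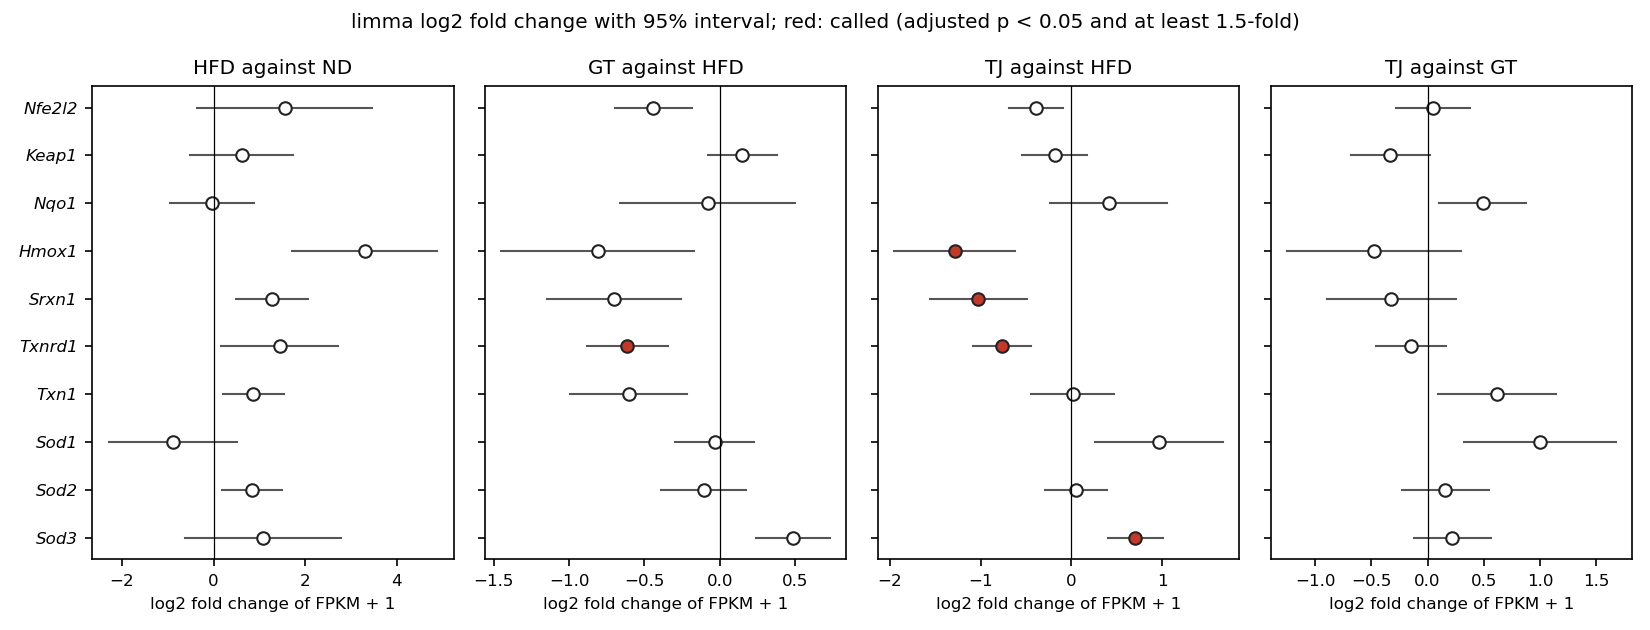
Log2 fold changes of the 10 genes on the log2(FPKM + 1) scale with their 95% intervals from limma, for the 4 comparisons on axes of different scale, with called genes in red. In TJ against HFD, Hmox1 lies at -1.29 and Sod3 at 0.71.

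GT was compared with the same 3 HFD libraries. Txnrd1 was significantly lower in the GT group, by 0.61 ± 0.11 on the log2 scale (SE; adjusted p = 0.0427, limma), and was the only 1 of the 10 genes called, against 3.63% of 12766 genes called and 1.81% called lower. Sod3 had an adjusted p of 0.0499 and a log2 fold change of 0.49 ± 0.10, a fold of 1.40, under the fold threshold. Nfe2l2 (-0.44, adjusted p = 0.0626), Srxn1 (-0.70, adjusted p = 0.0736), Txn1 (-0.61, adjusted p = 0.0750) and Hmox1 (-0.81, adjusted p = 0.110) were lower in every GT library than in any HFD library but were not called. With Txnrd1 these were 5 of the 10, against 24.4% of all genes. Together, 7 of the 10 genes did not overlap between the groups, when 36.7% of all genes did not. Keap1 had a log2 fold change of 0.15, Nqo1 of -0.08, Sod1 of -0.03 and Sod2 of -0.11. The Txnrd1 call was lost with 11 or 12 libraries in the fit and without GT replicate 2, GT replicate 3 or any HFD library. Without GT replicate 1, 4 of the 10 were called lower, namely Hmox1, Srxn1, Txnrd1 and Txn1, when 732 of 12834 genes were. The Txnrd1 call was also lost with the median-of-ratios scaling, with no filter, with the replicate block and with the length trend removed (-0.47, adjusted p = 0.0549, limma).

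TJ and GT were also compared directly, at different doses of different extracts. Of the 10 genes, 0 were called by limma, when 0.148% of 12187 genes were called, and 3 passed an unadjusted p under 0.05, close to the 24.6% of all genes that did. These were Sod1 (log2 fold change 1.00, 95% interval 0.32 to 1.67, adjusted p = 0.130), Nqo1 (0.49, 0.11 to 0.88, adjusted p = 0.151) and Txn1 (0.62, 0.10 to 1.15, adjusted p = 0.167). Hmox1 differed by -0.47, with an interval of -1.25 to 0.30, and Srxn1 by -0.32, with an interval of -0.90 to 0.25. For Sod3 the interval was -0.12 to 0.56. The groups did not overlap for 5 of the 10 genes, against 34.4% of all genes. Exact permutation tests of single genes gave no p under 0.1, the smallest that 3 libraries against 3 allow.

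Markers of cell types were examined in the same libraries. The sum of 8 macrophage markers, of which Lyz2 is the largest, ranged from 2881 to 4009 FPKM in HFD, 1199 to 2640 in GT, 718 to 2112 in TJ and 58.6 to 570 in ND, and in TJ against HFD 7 of the 8 markers were called lower. The sum of 5 stromal markers ranged from 1706 to 1837 in HFD, 982 to 1331 in GT, 672 to 989 in TJ and 43.3 to 1040 in ND, with 4 of 5 called lower in TJ. The adipocyte sum, in which Fabp4 is the largest, ranged from 16963 to 19283 in HFD, 23984 to 27272 in GT, 29074 to 58683 in TJ and 3886 to 31565 in ND, with 6 of 8 called higher in TJ. Lep, the leptin gene of the same list, was not called and was lower in every TJ library than in any HFD library (-0.96). No macrophage or stromal marker was at 0 in any library. In TJ against HFD, 0 of 5 endothelial, 0 of 4 smooth muscle and 1 of 4 mesothelial markers were called by limma, with 1, 0 and 1 at an unadjusted p under 0.05. The 7 testis germ cell markers were lower in every TJ library than in any HFD library (median -3.53), with 0 called and 4 at an unadjusted p under 0.05, and their sum was 27.7 to 1928 FPKM in HFD and 0.69 to 9.13 in TJ.

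Per 100 FPKM of the macrophage sum, Hmox1 was at 2.88, 3.22 and 3.31 in HFD, 3.35, 2.81 and 3.51 in GT, 2.80, 4.04 and 2.89 in TJ and 5.38, 2.98 and 4.22 in ND. These ratios overlapped between all groups. The same ratio of Srxn1 was 1.15 to 1.51 in HFD and 2.39 to 41.7 in ND, and that of Txnrd1 1.18 to 1.504 in HFD and 3.92 to 12.2 in ND, so for both genes ND lay above HFD, whereas GT and TJ overlapped HFD. Per 100 FPKM of the adipocyte sum, Sod3 was at 1.07, 0.98 and 1.18 in HFD, 1.05, 1.10 and 1.07 in GT, and 0.85, 0.55 and 1.12 in TJ, and these groups overlapped. In ND it was at 0.77, 0.53 and 0.73, below every HFD and GT library and overlapping TJ. The other sums were also used, again per 100 FPKM. Over the macrophage sum, Sod3 was at 4.99 to 6.26 in HFD, 9.50 to 24.4 in GT and 14.6 to 45.1 in TJ. Over the adipocyte sum, Hmox1 was at 0.50 to 0.78 in HFD, 0.15 to 0.37 in GT and 0.049 to 0.18 in TJ. For both ratios HFD was apart from GT and TJ. In ND they were at 29.2 to 51.2 and 0.054 to 0.087. In HFD against ND without ND replicate 1 and with no block, 8 of 8 macrophage and 3 of 5 stromal markers were called higher. Of 5 mesothelial markers 3 were called lower, and of 8 adipocyte markers 5 were called lower and 1, Lep, higher. With the replicate block as well, 7 macrophage and 3 stromal markers and Lep were called higher, and 0 markers lower. With all 3 ND libraries and no block, 1 macrophage marker was called higher, and 0 stromal, mesothelial or adipocyte markers were called. The part of these cell types in the differences was not tested.

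**Figure D3:**
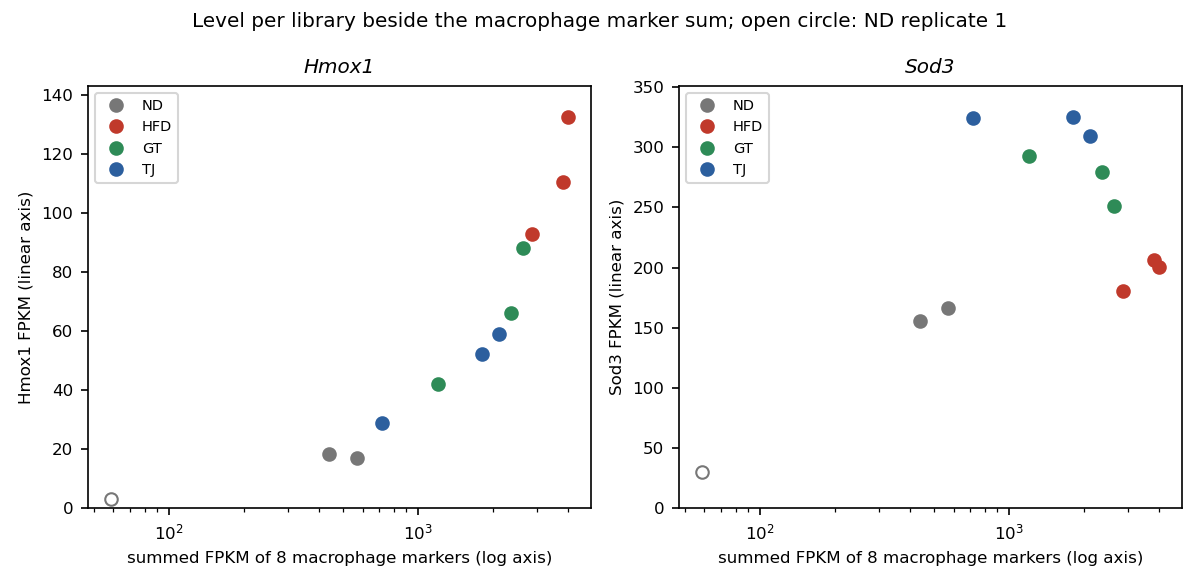
Hmox1 (left) and Sod3 (right) in FPKM, on linear axes, beside the summed FPKM of 8 macrophage markers, on log axes, for each library, with ND replicate 1 as an open circle. The HFD libraries, with the highest macrophage sums (2881 to 4009), have the highest Hmox1, whereas TJ libraries have the highest Sod3.

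Other genes of the system were counted by role. Among 10 tested NRF2 regulators, 1 was called in TJ against HFD, Bach1, the repressor that competes with NRF2 at its elements, which fell by 0.95 on the log2 scale, when 11.1% of all genes were called lower. It was at 9.42, 5.67 and 10.5 FPKM in TJ and 15.1, 18.3 and 17.4 in HFD. Of 18 other NRF2 targets, 1 was called lower, the aldo-keto reductase Akr1b8 (-1.33), a smaller share than over all genes, and the median was -0.12 against -0.14 over all genes. In GT against HFD, 2 of these 18 targets were called lower, Akr1b8 (-1.11) and the carbonyl reductase Cbr3 (-1.01), when 1.81% of all genes were.

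Of 10 thioredoxin and peroxiredoxin genes, Prdx5 was called higher in TJ against HFD (0.81), near the 7.41% of all genes called higher, and of 7 genes for superoxide and peroxide handling, the lipid peroxide reductase Gpx4 was called higher (1.06). Gpx4 was at 666, 1188 and 538 FPKM in TJ and 402, 330 and 350 in HFD. Of 9 genes for heme and iron, 0 were called by limma, and 1 had an unadjusted p under 0.05, a smaller share than the 41.4% of all genes. They ran from Hmox2, the constitutive heme oxygenase (-0.48), to the ferritin heavy chain Fth1 (0.27).

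The NADPH oxidase of phagocytes is a source of superoxide. Of 5 tested NADPH oxidase genes in TJ against HFD, 2 were called lower, Cybb (-2.31) and Rac2 (-1.09), when 11.1% of all genes were. All 5 were lower in every TJ library than in any HFD library, as 31.4% of all genes were. The median was -1.09 against -0.14 over all genes. Cyba was not analysed here. In HFD against ND, with all 3 ND libraries, Ncf1 (2.93), Ncf4 (2.90) and Rac2 (2.47) were called higher, as 1.73% of all genes were. With the replicate block 0 genes of the table were called, so these 3 calls were lost. Without ND replicate 1, 4 of the 5 were called higher, Cybb (3.15), Ncf4 (2.55), Ncf1 (2.52) and Rac2 (2.20), when 11% of all genes were. These 4 were also called with the block in that fit, when 3.18% of all genes were called higher. In GT against HFD 0 of 5 were called by limma, with 2 at an unadjusted p under 0.05, from Cybb (-1.06) to Nox4 (-0.39). Macrophages express the phagocyte oxidase genes, whereas Nox4 is mainly expressed by other cells. The macrophage marker sums are given above, and their part was not tested.

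In GT against HFD, 0 genes were called by limma among the 10 regulators (from Bach1 at -0.33 to Mafk at 0.23), the 10 thioredoxin and peroxiredoxin genes (Prdx4 at -0.27 to Txnrd2 at 0.34), the 7 superoxide and peroxide genes (Gpx3 at -0.68 to Cat at 0.52) and the 9 heme and iron genes (Fth1 at -0.56 to Alas1 at 0.26). At an unadjusted p under 0.05 there were 1, 3, 3 and 2 of them, against 29.3% of all genes. In HFD against ND, with all 3 ND libraries, 0 were called among these 4 lists and the 18 other targets, when 1.77% of all genes were, and those with an unadjusted p under 0.05 numbered 0 of 10, 0 of 10, 0 of 7, 4 of 9 and 3 of 18, against 11.6% of all genes. The 18 other targets ran from Osgin1 (-2.12) to Akr1b8 (1.73), with a median of 0.73 against 0.07 over all genes. Osgin1 was at 106, 5.56 and 29.4 FPKM in ND, with the highest value in ND replicate 1, and 13.0, 3.36 and 3.23 in HFD, and these groups overlapped. Without ND replicate 1 its log2 fold change was -1.15, and the median of the 18 was 0.10 against -0.02 over all genes. Of the 18, 5 were then called higher, namely Akr1b8 (2.14), Cbr3 (1.23), Slc48a1, Ephx1 and Pgd. In the other lists Bach1 (0.80), the copper chaperone Atox1 (0.97), Ftl1, Blvra and Fth1 were called higher and Txnip and the iron exporter Slc40a1 (-0.83) lower, so the 5 lists held 1, 1, 1, 4 and 5 calls in the order above, when 15.4% of all genes were called. With the replicate block 0 genes of these 5 lists were called by limma, and 1, 2, 1, 4 and 8 had an unadjusted p under 0.05, against 20.6% of all genes. In TJ against GT, 0 genes of the 6 lists were called by limma. The superoxide and peroxide list held the most with an unadjusted p under 0.05 there, 5 of 7 against 24.6% of all genes, and its median was 0.46 against -0.03 over all genes.

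**Figure D4:**
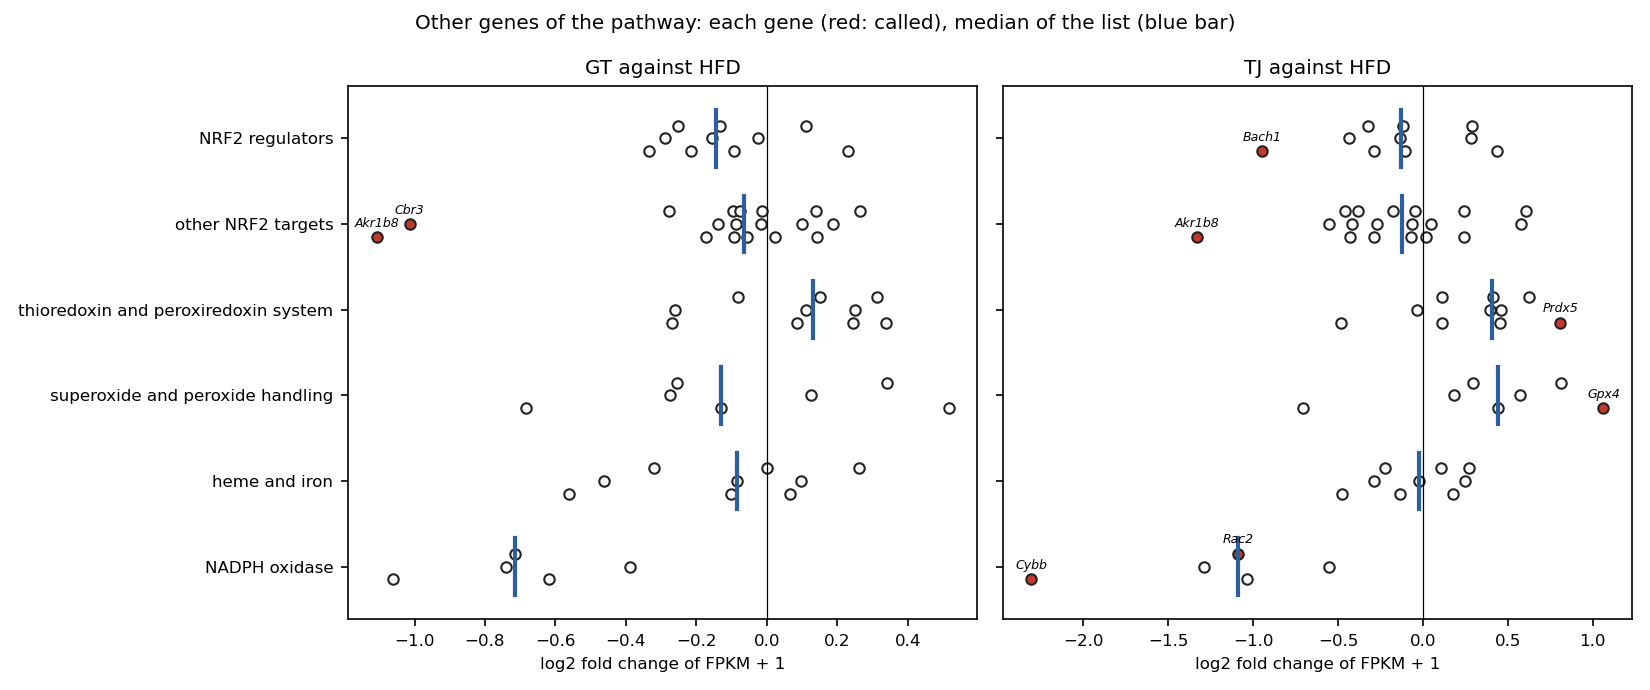
Log2 fold changes on the log2(FPKM + 1) scale of the genes in 6 lists of the NRF2 and redox system, in GT against HFD (left) and TJ against HFD (right), on axes of different scale, with called genes in red and the median of each list as a blue bar. In TJ against HFD the 5 NADPH oxidase genes lie below 0, with Cybb lowest at -2.31.

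The genes with the pattern most like a member were found from the root mean square difference of log2(FPKM + 1), each gene centred on its mean, over the 12 libraries and 13935 genes. For Hmox1 they were Myo1g (0.13), Plin2 (0.17) and Plaur (0.18). For Sod3 they were Gsto1 (0.14), Cavin1 (0.15) and Htra1 (0.17). For Nfe2l2 they were Gyg (0.12), Pgk1 (0.14) and Ifi204 (0.15). Sod3 and Nfe2l2 were among the 3 members with the widest range of group means only with ND replicate 1. Without it their ranges were 0.98 and 0.64 on the log2 scale, and Hmox1 (2.58), Srxn1 (1.44) and Sod1 (1.00) had the widest. In the 11 libraries without ND replicate 1, none of these 9 genes was among the nearest 3. The nearest were then Tmem106a (0.11) for Hmox1, Ppfia3 (0.11) for Sod3 and Celf4 (0.051) for Nfe2l2.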

How the data were processed

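RNA was sequenced from whole eWAT in 12 libraries, 3 per group. The authors deposited FPKM values, computed with Cufflinks after mapping with STAR, with noncoding regions masked and corrections for multiply mapped reads and fragment bias. The submitters' processing notes name CASAVA 1.8.2, STAR 2.4.0 and Cufflinks 2.1.1. The methods name the human genome of Ensembl release 72, whereas all identifiers of the table are mouse genes. Whether counting used strand is not given in the sources used here.

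FPKM holds no counts, so no counting intervals were derived and precision rests on the spread between libraries. The methods state that eWAT of 3 mice was taken from the HFD and the TJ group. No source states 1 mouse per library, and for ND and GT the labels only number the libraries, so p-values measure the spread between these samples, which may be technical. No libraries held identical values.

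Values were compared as log2(FPKM + 1) with limma 3.58.1 in R 4.3.3 (trended eBayes, the 6 libraries compared, no covariates). The genes tested had to average 1 FPKM or more over these libraries, and p-values were adjusted by Benjamini-Hochberg over all of them. Fold changes on this scale understate changes of low genes. All 10 members passed the filter in each comparison. GT and TJ were both compared with the same HFD libraries. Coordinates and symbols came from GENCODE mouse release 21 (GRCm38), which named 22671 identifiers. Exact permutation tests were run in scipy 1.17.1. The comparison was run on simulated data with known changes.

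The members and gene lists were chosen with earlier results of these data known. The genes named are the 10 members, each called gene of a list in the comparison described or else the highest and lowest of a list, and the 3 genes most like each of the 3 members with the widest range. Not every such extreme is named. In the NADPH oxidase list, 1 gene is not reported here. Cell markers are given by their sums and counts of calls. The alternatives were a pseudocount of 0.1, median-of-ratios scaling, a filter at a mean of 5 FPKM or none, all 12 libraries in the fit, the replicate block, removal of a trend with transcript length and each library left out. A fit with 11 libraries, without ND replicate 1, was added after the data had been seen, also for the genes most like a member, and so were the other lists in HFD against ND without that library and that fit with the replicate block.

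Whether replicate numbers pair libraries was checked with the correlation of deviations from group means. For HFD and ND it was 0.547, 0.342 and 0.122, all above 0.1, which passed the rule for pairing. The main fit still used no block, and the fit with the block is given as an alternative. Replicate 1 of both groups held a raised germ cell sum. HFD replicate 3 and ND replicate 2 correlated more, at 0.626, and neither the labels nor the methods name anything shared by a number. In the other comparisons it was not above 0.1 for every number.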

Additional observations from a re-analysis of the deposited data

How the results depend on the processing

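In HFD against ND, 0 members were called. With all 12 libraries in the fit 3 were called (Hmox1, Srxn1 and Sod2), when 1131 of 14430 genes were. With 11 libraries 6 were called, when 2656 of 13661 genes were. Leaving out 1 library gave 0 to 6 calls, with 6 only without ND replicate 1, when 2098 of 13661 genes were called. Without that library and with the replicate block 2 were called (Hmox1 and Srxn1), when 501 genes were. In GT against HFD the 1 call became 0 with no filter, median-of-ratios scaling, 11 or 12 libraries in the fit or the replicate block. Leaving out 1 library gave 0 to 4, with 4 without GT replicate 1, when 1107 of 12834 genes were called. With the length trend removed, 1 was called, Sod3 in place of Txnrd1, when 668 of 12686 genes were. In TJ against HFD the 4 calls became 2 with no filter (Txnrd1 and Sod3), when 382 of 20343 genes were called. They became 0 with all 12 libraries, when 1 of 12807 genes was called, and leaving out 1 library gave 0 to 5. With the length trend removed 4 were called, with Sod1 in place of Txnrd1, when 2203 of 12725 genes were. With a mean of at least 5 FPKM or 11 libraries 5 were called, Sod1 added, when 2145 of 9300 and 3003 of 12807 genes were. TJ against GT had 0 calls throughout. The cause of these changes was not tested.

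The replicate block left 0 members called in HFD against ND, 0 in TJ against GT and 3 in TJ against HFD (Hmox1, Srxn1 and Txnrd1), and Sod3 then had an adjusted p of 0.0547 in limma. Over all genes the block gave 0 DEGs in place of 255 in HFD against ND, 5 in place of 464 in GT against HFD and 1198 in place of 2366 in TJ against HFD.

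Differences that changed sign were those of Nqo1, Sod1, Sod2, Keap1, Txn1 and Nfe2l2, none of them called in that comparison. Nqo1 in HFD against ND came to 0.020 with the length trend removed, to 0.013 with the block and without ND replicate 1, and ranged from -0.32 to 0.14 when 1 library was left out. In GT against HFD, with median-of-ratios scaling, Nqo1 came to 0.0048, Sod1 to 0.080 and Sod2 to 0.0036, and with the length trend removed to 0.076, 0.11 and 0.031. Leaving out 1 library gave -0.26 to 0.20 for Nqo1 and -0.087 to 0.060 for Sod1. In TJ against HFD, Keap1 came to 0.10 with the length trend removed, and leaving out 1 library gave -0.10 to 0.21 for Txn1 and -0.036 to 0.16 for Sod2. In TJ against GT, Nfe2l2 ranged from -0.015 to 0.13 when 1 library was left out.

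Median-of-ratios scaling moved the median log2 fold change of all genes from -0.14 to -0.03 in TJ against HFD, from -0.12 to -0.02 in GT against HFD and from 0.07 to -0.12 in HFD against ND. DEGs in TJ against HFD went from 949 higher and 1417 lower to 1174 and 1170, and in GT against HFD from 233 and 231 to 360 and 137. With 3 libraries a group and no counts, small differences of low genes such as Nqo1 cannot be resolved.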

Other observations

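In TJ replicate 2, chosen after its values were seen, redox genes were higher or lower than in the other TJ libraries. Sod1 was at 1182 FPKM in this library and 649 and 531 in the other TJ libraries, Gpx4 at 1188 against 666 and 538, and Prdx5 at 402 against 274 and 262. Of the 10 members, 6 had their lowest TJ value in this library, namely Hmox1 (29.0 FPKM against 59.2 and 52.4), Srxn1 (16.3 against 27.8 and 26.7), Txnrd1, Nfe2l2, Keap1 and Sod2. Txn1 was highest there, and Sod3 and Nqo1 had their middle TJ value. Its macrophage sum was 718 FPKM against 2112 and 1810, and its adipocyte sum was 58683 FPKM against 36213 and 29074. In ND replicate 1, Gpx4 was at 3717 FPKM and Cat, the peroxisomal catalase, at 13.3, against 412 to 486 and 356 to 464 in the other ND libraries.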
